A study of Mus musculus with 8 samples.

Results

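Endothelial identity genes are described here across 8 mouse hearts: Pecam1, Cdh5, Tie1, Tek, Egfl7, Emcn, Vwf, Flt1, Rgcc and Aqp1. They were taken by gene name from a table of 17911 genes, and all 10 were in it. Each heart was a whole organ from 1 C57Bl6/J wild-type mouse, 4 female (replicates 1, 2, 3 and 4) and 4 male (replicates 1, 3, 4 and 5). No mouse was treated or mutant, their age is given as 4 weeks by the design text and as 4 to 6 weeks by the protocol, and a single batch label covers all hearts. The study asked which transcripts differ between the sexes, in work on the X-linked RNA helicase DDX3X. The labels state 1 heart per library, and the p-values below measure the spread between these hearts.

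Endothelial cells line the heart chambers, the coronary vessels and the dense capillary bed that runs beside each cardiomyocyte. They hold together through VE-cadherin (Cdh5) and PECAM-1 (Pecam1), and they stay quiescent under angiopoietin signals read by the receptor tyrosine kinase TIE2 (Tek) with its relative TIE1 (Tie1). VEGFR1 (Flt1) binds VEGF and limits its access to the main signalling receptor VEGFR2 (Kdr). Von Willebrand factor (Vwf) is stored in Weibel-Palade bodies and captures platelets, EGFL7 is a secreted matrix protein, endomucin (Emcn) is a surface sialomucin, aquaporin-1 (Aqp1) is a water channel, and Rgcc is a cell cycle regulator abundant in capillary endothelium.

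Start-site windows are shown because endothelial promoters and enhancers are known for sites of ETS factors, often beside forkhead sites. RefSeq windows on GRCm38.p6, from 250 bases before to 50 bases after an annotated start, were found for 7 of the 10 genes (9 windows, 3 of them for Egfl7). Windows of 5 genes follow, in the direction of transcription, with matches in capitals; capitals mark ACAGGAA (a combined forkhead and ETS sequence) or its reverse complement TTCCTGT, and in Flt1 they mark the TATA box sequence TATAAA.
Egfl7, chr2:26583615-26583914, plus strand: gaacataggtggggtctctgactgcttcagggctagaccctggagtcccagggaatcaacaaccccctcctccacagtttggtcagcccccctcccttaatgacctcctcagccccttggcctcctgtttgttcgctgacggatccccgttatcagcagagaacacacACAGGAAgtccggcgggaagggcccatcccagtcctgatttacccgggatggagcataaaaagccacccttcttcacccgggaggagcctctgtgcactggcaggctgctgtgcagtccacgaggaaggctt
Emcn, chr3:137340828-137341127, plus strand: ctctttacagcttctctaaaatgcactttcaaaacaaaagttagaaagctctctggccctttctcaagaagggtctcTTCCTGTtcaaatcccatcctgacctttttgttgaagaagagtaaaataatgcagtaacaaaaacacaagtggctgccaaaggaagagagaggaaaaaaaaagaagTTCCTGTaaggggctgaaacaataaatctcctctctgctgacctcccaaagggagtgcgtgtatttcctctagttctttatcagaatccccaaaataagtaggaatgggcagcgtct
Tie1, chr4:118489800-118490099, minus strand: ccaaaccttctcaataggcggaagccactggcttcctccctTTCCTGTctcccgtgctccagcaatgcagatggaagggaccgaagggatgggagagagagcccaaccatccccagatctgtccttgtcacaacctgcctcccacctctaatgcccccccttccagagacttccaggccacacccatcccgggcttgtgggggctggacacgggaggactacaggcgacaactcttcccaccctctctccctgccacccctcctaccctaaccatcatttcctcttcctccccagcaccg
Flt1, chr5:147725962-147726261, minus strand: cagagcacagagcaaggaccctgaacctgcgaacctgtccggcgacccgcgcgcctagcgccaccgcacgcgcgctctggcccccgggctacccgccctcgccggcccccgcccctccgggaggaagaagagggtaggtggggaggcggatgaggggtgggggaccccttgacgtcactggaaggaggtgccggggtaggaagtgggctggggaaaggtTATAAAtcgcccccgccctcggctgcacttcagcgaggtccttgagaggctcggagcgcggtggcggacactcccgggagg
Aqp1, chr6:55336049-55336348, plus strand: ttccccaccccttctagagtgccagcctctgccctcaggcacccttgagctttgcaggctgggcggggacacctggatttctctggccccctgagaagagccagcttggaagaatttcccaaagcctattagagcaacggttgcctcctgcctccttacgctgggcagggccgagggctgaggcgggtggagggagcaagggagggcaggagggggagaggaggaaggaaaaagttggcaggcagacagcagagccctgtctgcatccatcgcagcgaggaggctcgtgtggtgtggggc
ACAGGAA, searched on both strands, occurred in 4 of the 9 windows, those of Egfl7 (2 windows, 91 and 82 bases before the start), Emcn (173 and 67 bases before) and Tie1 (209 bases before), and in 8.67% of all 32851 windows of this length. The ETS sequence CCGGAA occurred in 0 of the 9 windows and in 14.9% of all windows. TATAAA occurred in the Flt1 window alone of the 9, 31 bases before the start, and in 13.6% of all windows. The sequence GATAAG, bound by zinc finger factors of blood and endothelium, occurred in the Tek window alone of the 9, 37 bases after the start, and in 7.44% of all windows. No match overlapped another, and a match is a description of the letters, not a measured binding site.

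The Egfl7 locus also encodes the endothelial microRNA miR-126, which is shown because its host gene is measured and it is not. The mature strand in RefSeq, at chr2:26591402-26591423 on the plus strand, has its seed (bases 2 to 8) in capitals.
mmu-miR-126a-3p: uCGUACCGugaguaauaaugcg
In the GENCODE vM21 annotation, exons of Egfl7 also share positions with Agpat2 on the opposite strand and with Gm20532 on the same strand. Whether strand was used in counting is not given in the sources used here, and strand would not separate Egfl7 from Gm20532. The source of Egfl7 reads is therefore uncertain, and no values are given here for Gm20532.

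Reads assigned to genes ran from 51.7 M to 75.7 M per heart, fewest in female replicate 4, male replicate 5 and female replicate 3. Levels are normalized read counts, the authors' reads divided by 1 size factor per heart (0.821 to 1.17). The labelled tissue was checked against its markers: all 12 cardiomyocyte markers were measured, with a summed level of 6369793 to 7189539 per heart. None of the 24 other pan-endothelial genes was at 0 in any heart. In whole-heart RNA, fewer cells of a type and less RNA per cell cannot be told apart.

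All 10 genes were well expressed in every heart, with 12356 (Rgcc) to 190670 (Aqp1) reads each over the 8 hearts. By mean level they ranked from the 67.9th (Rgcc) to the 98.3rd (Aqp1) percentile of all genes, a scale that does not correct for length. Per kilobase of annotated exon, Aqp1 stood highest at 8995 ± 966 normalized reads (SD, n = 8), followed by Cdh5 at 3179 ± 216. Pecam1 (1798 ± 82.9), Tie1 (1715 ± 62.1), Egfl7 (1683 ± 122) and Rgcc (1679 ± 179) formed a middle group whose ranges over hearts overlapped. Within that group Pecam1 was above Tie1 in 8 of 8 hearts, Tie1 above Egfl7 in 6 and Egfl7 above Rgcc in 4. Tek (1001 ± 66.6) and Flt1 (665.5 ± 39.6) came next without overlapping their neighbours. Vwf (419 ± 49.1) and Emcn (393 ± 27.1) were lowest per kilobase and did not separate, Vwf being above Emcn in 4 of 8 hearts. Parts of this order depend on the length used. Per kilobase of the longest annotated transcript, Cdh5 (3344 ± 227), Pecam1 (3255 ± 150) and Egfl7 (3231 ± 235) lay close together, above Tie1 (1992 ± 72.1) and Rgcc (1679 ± 179). On that scale Flt1 (1303 ± 77.5) also lay above Tek (1013 ± 67.4), while Aqp1 stayed highest and Vwf and Emcn lowest.

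**Figure D1:**
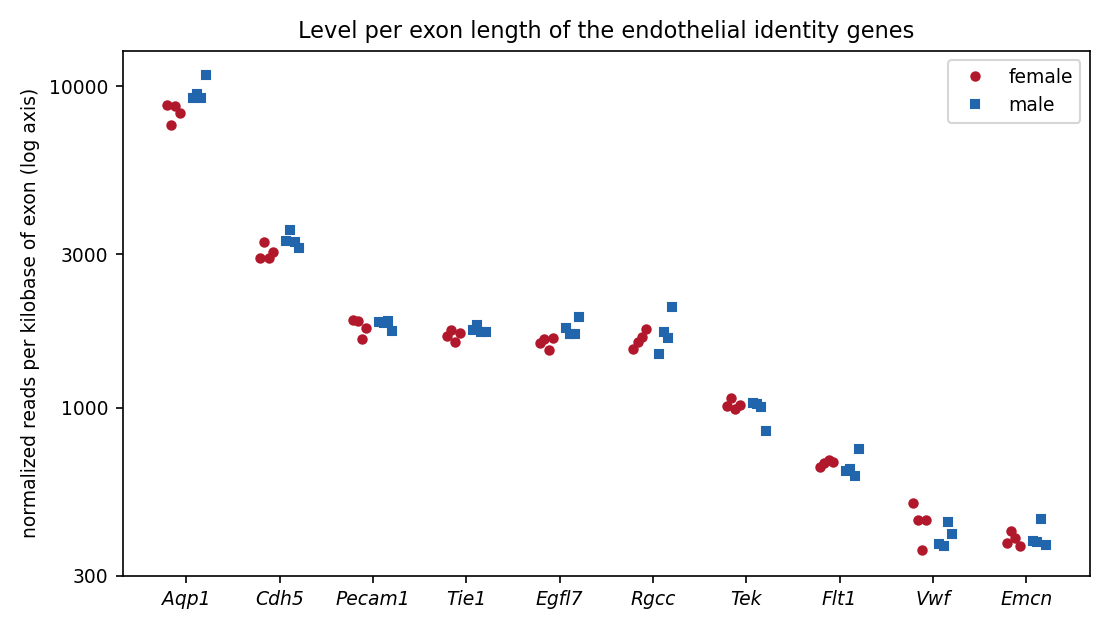
Normalized reads per kilobase of exon (log axis) for each gene, ordered by mean level, with 1 point per heart (circles, female; squares, male). On this length scale Aqp1 and Cdh5 lie above all other genes in every heart, and Vwf and Emcn lie lowest; by the longest transcript Cdh5 (3344) is close to Pecam1 (3255) and Egfl7 (3231).

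Of the 10 endothelial identity genes, 0 differed between the sexes at an adjusted p under 0.05 (limma on log2(value + 1), Benjamini-Hochberg over all 17911 genes). Over all genes that test called 1.16% (0.475% higher and 0.687% lower in females). At an unadjusted p under 0.05 limma had 3 of the 10 (Aqp1, Egfl7 and Cdh5, all with lower values in females), beside 16.0% of all genes and 8.16% with lower values in females. EdgeR called 0 of the 10 and 1.19% of all genes, and DESeq2 called 1 of the 10 (Aqp1) and 4.90% of the 14088 genes it tested. Fold changes, female minus male on the log2 scale, ran from -0.22 (Aqp1) to 0.13 (Vwf), 7 negative and 3 positive, with a median of -0.04 beside 0.002 over all genes. The median size was 0.07, beside 0.08 over all genes. The 95% intervals of 7 of the 10 included 0, and as female to male ratios the intervals reached from 0.782 (Aqp1) to 1.30 (Vwf). A difference that the test did not call is not thereby shown to be absent, and these intervals give the sizes that remain possible.

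**Figure D2:**
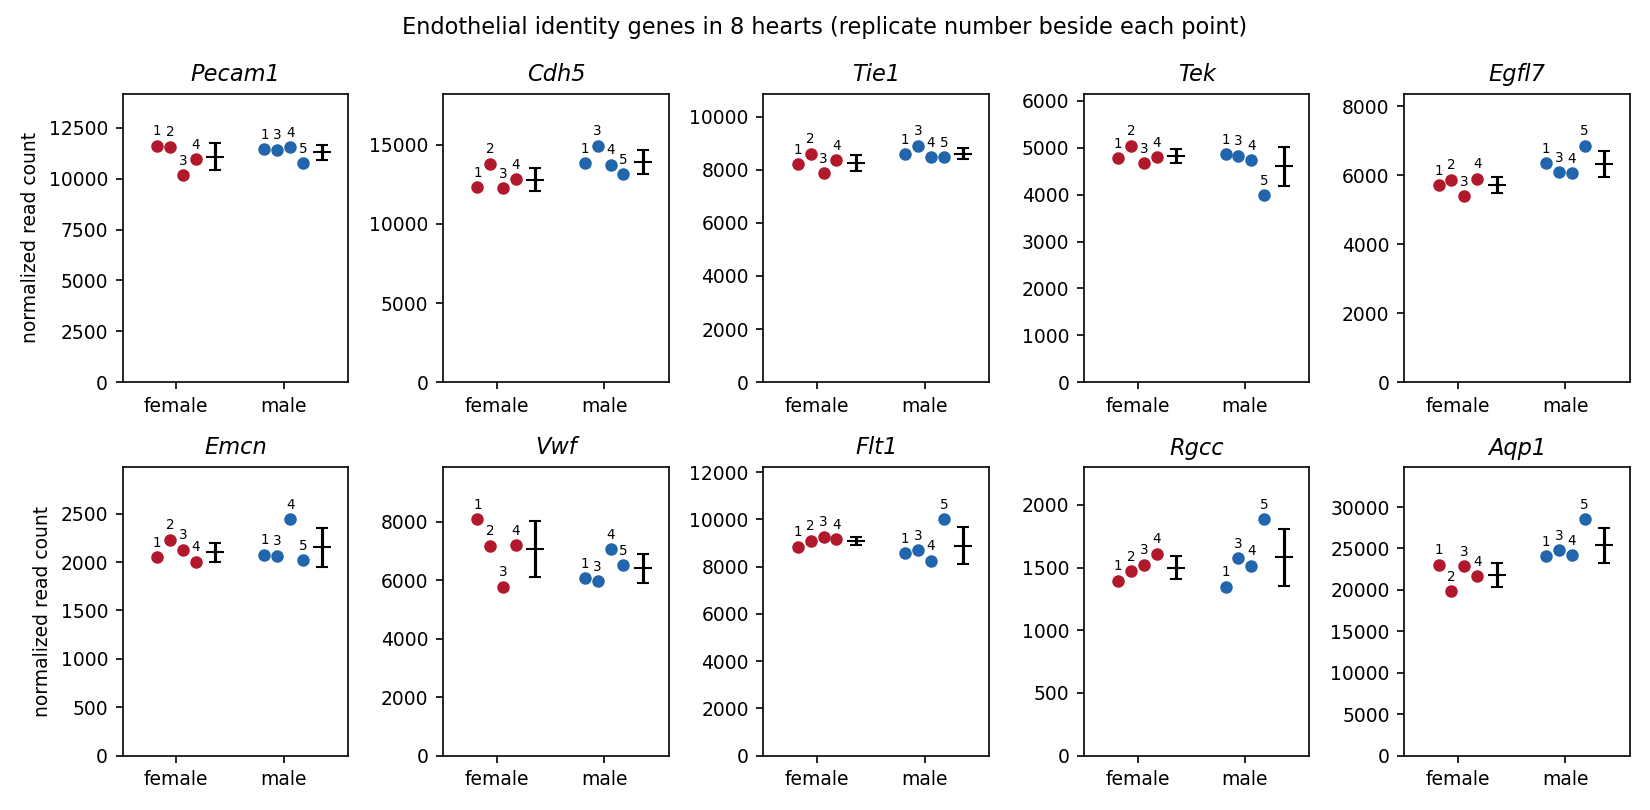
Normalized read count of each gene in each heart, female and male, with the replicate number at each point and the mean ± SD of each sex beside the points (n = 4). Points of the sexes are apart for Egfl7 and Aqp1 and intermingle for the other 8 genes.

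**Figure D3:**
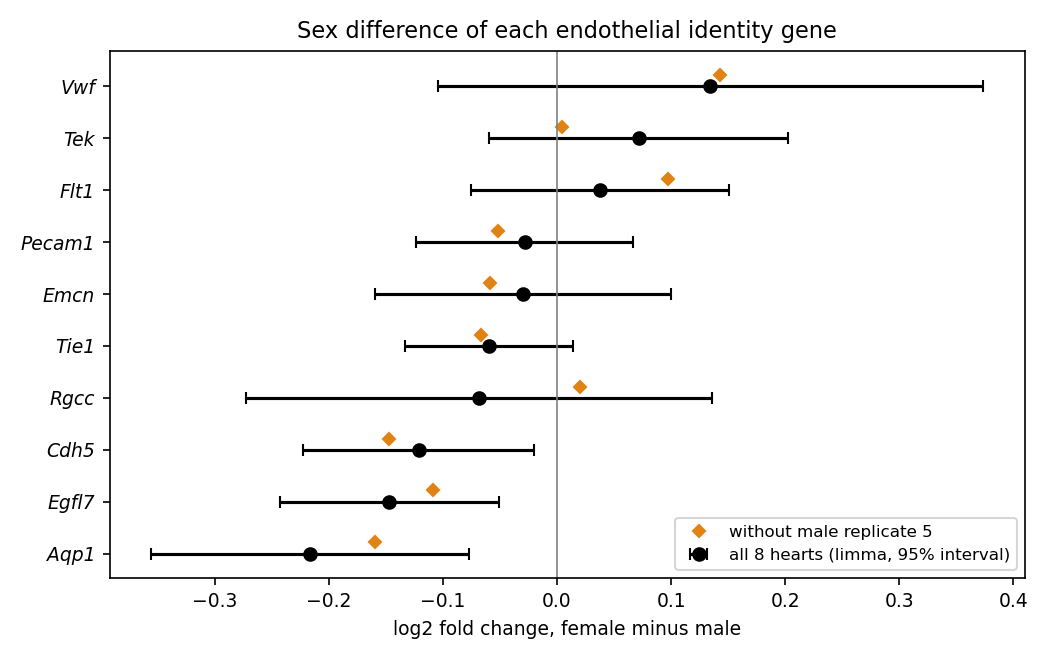
Log2 fold change of each gene, female minus male, with limma's 95% interval over 8 hearts (circles) and the value without male replicate 5 (diamonds). The intervals of Aqp1, Egfl7 and Cdh5 lie below 0, and that of Vwf is the widest at its upper end (0.37).

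Aqp1 (ENSMUSG00000004655, chr6:55336432-55348555, plus strand, mm10) had the largest difference of the 10. Its level was 23020, 19874, 22860 and 21657 in female replicates 1 to 4. It was 24087, 24799, 24200 and 28548 in male replicates 1, 3, 4 and 5. Every female value lay below every male value, and male replicate 5 stood highest. The female mean was 21853 ± 1453 and the male mean 25409 ± 2116 (SD, n = 4 each), with a log2 fold change of -0.22 (95% interval -0.36 to -0.08, SE 0.06, limma adjusted p = 0.136). The authors' deposited table gives an adjusted p = 0.0225 for Aqp1, the 1 member among its 4.90% of tested genes under 0.05. DESeq2 on the recovered reads likewise gave an adjusted p = 0.0225, so the call rests on the choice of test. Without male replicate 5 the log2 fold change was -0.16 (limma adjusted p = 0.0992). Red cells also carry aquaporin-1: the 7 measured of 8 red cell markers, none at 0 in any heart, summed to 14272 to 25345 in females and 14536 to 21990 in males. Their part in the Aqp1 levels was not tested.

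Egfl7 (ENSMUSG00000026921, chr2:26580014-26593120, plus strand) was the other gene whose sexes did not overlap. It had 5704, 5868, 5394 and 5903 in female replicates 1 to 4 and 6340, 6085, 6055 and 6860 in male replicates 1, 3, 4 and 5. The highest female and the lowest male value differed little, and male replicate 5 was again highest. The log2 fold change was -0.15 (95% interval -0.24 to -0.05, limma adjusted p = 0.135), and it was -0.20 (limma adjusted p = 0.0482) with total reads as a covariate, a setting in which 0.854% of all genes were called. Agpat2, which shares exon positions with Egfl7, had a female mean of 2728 ± 249 and a male mean of 3005 ± 127 (SD, n = 4 each), which limma put at -0.14 on the log2 scale with an adjusted p = 0.273; its part in the Egfl7 values was not tested. Genes without overlap made up 2 of the 10, beside 9.35% of all genes, and both were lower in females, as were 4.82% of all genes, with 4.52% higher.

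The junction genes Cdh5 and Pecam1 overlapped between the sexes. Cdh5 (ENSMUSG00000031871, chr8:104101625-104144511, plus strand) encodes the cadherin of endothelial adherens junctions. It had 12315, 13810, 12247 and 12834 in female replicates 1 to 4 and 13833, 14958, 13734 and 13158 in male replicates 1, 3, 4 and 5. Female replicate 2 reached into the male range, and the other 3 female hearts lay below every male heart. The log2 fold change was -0.12 (95% interval -0.22 to -0.02, limma adjusted p = 0.232). Pecam1 (ENSMUSG00000020717, chr11:106654217-106750628, minus strand), a homophilic adhesion receptor also found on platelets and leukocytes, had 11636, 11585, 10181 and 10978 in females and 11460, 11425, 11564 and 10764 in males, in the same order. The lowest heart was female replicate 3 and the highest female replicate 1, so both ends of the range were female. Its log2 fold change was -0.03 (95% interval -0.12 to 0.07, limma adjusted p = 0.81).

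The receptor genes Tie1, Tek and Flt1 also overlapped. Tie1 (ENSMUSG00000033191, chr4:118471191-118490061, minus strand) was the steadiest of the 3 over all hearts, at 8205, 8599, 7868 and 8368 in females and 8573, 8910, 8467 and 8472 in males. Its log2 fold change was -0.06 (limma adjusted p = 0.428), and -0.04 without female replicate 3 (limma adjusted p = 0.662). Tek (ENSMUSG00000006386, chr4:94739289-94874976, plus strand) had 4773, 5047, 4675 and 4804 in females and 4864, 4832, 4733 and 3987 in males. Apart from male replicate 5, which was the lowest, the male values lay inside the female range. Tek had a log2 fold change of 0.07 (limma adjusted p = 0.611), which was 0.004 without that heart. Flt1 (ENSMUSG00000029648, chr5:147561604-147726011, minus strand), whose soluble and membrane forms are not separated in these gene-level counts, had 8850, 9101, 9260 and 9163 in females and 8576, 8687, 8246 and 10013 in males. Here male replicate 5 was the highest heart, and the other 3 males lay below every female. The log2 fold change of Flt1 was 0.04 (limma adjusted p = 0.78), and it was 0.10 (limma adjusted p = 0.149) without male replicate 5.

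For Vwf, Emcn and Rgcc the range within each sex was wider than the difference between the means of the sexes. The same held for Cdh5, Pecam1, Tie1, Tek and Flt1. Vwf (ENSMUSG00000001930, chr6:125546774-125686679, plus strand) had 8085, 7179, 5774 and 7199 in females and 6065, 5969, 7060 and 6502 in males. Female replicates 1 and 3 were the highest and lowest of all 8, and the log2 fold change was 0.13 (95% interval -0.10 to 0.37, limma adjusted p = 0.586). Without female replicate 3 it was 0.23 (limma adjusted p = 0.163) and without female replicate 1 it was 0.07 (limma adjusted p = 0.793). Emcn (ENSMUSG00000054690, chr3:137341067-137432185, plus strand) had 2049, 2229, 2126 and 2001 in females and 2075, 2064, 2444 and 2020 in males, with male replicate 4 highest (log2 fold change -0.03, limma adjusted p = 0.857). Rgcc (ENSMUSG00000022018, chr14:79288756-79301645, minus strand) had 1397, 1470, 1523 and 1610 in females and 1349, 1576, 1516 and 1887 in males. Male hearts held both the lowest and the highest Rgcc value, and the log2 fold change was -0.07 (limma adjusted p = 0.777).

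Spread within a sex exceeded counting error for each of the 10 genes in both sexes. The coefficient of variation ran from 1.93% (Flt1 in females) to 14.2% (Rgcc in males), while the part set by the number of reads was at most 2.65%. For Flt1 in females that part was 1.07%. Over the 10 genes the median coefficient was 5.19% in females and 8.06% in males. Over all genes the medians were 6.98% and 7.23%, and among the 5752 genes at or above the level of Rgcc they were 3.56% and 3.53%.

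Male replicate 5 was outside the range of the other 3 males in 8 of the 10 genes, in both directions. In every gene the highest and the lowest heart of a sex are outside in this way. The same count was 7 for female replicate 3, 6 for male replicate 4 and 3 to 5 for the remaining hearts. The share over all genes is not given here. Rgcc, Flt1, Aqp1 and Egfl7 were at 1.27, 1.18, 1.17 and 1.11 times the mean of the other 3 males. Tek was at 0.83 times that mean, and Emcn, Cdh5 and Pecam1 at 0.921, 0.928 and 0.937. Female replicate 3 was the lowest female in 6 genes (Pecam1, Cdh5, Tie1, Tek, Egfl7 and Vwf). The low values of that heart were not particular to these genes. Of all hearts it had the lowest sums of other pan-endothelial (103372), fibroblast (196871) and macrophage (21292) genes, and the highest of cardiomyocyte markers (7189539). Its sums of pericyte and smooth muscle (88610) and red cell markers (15498) were not the lowest. The cause was not tested. Kdr, named after its values were seen, was like Tek lowest in male replicate 5. It had 12205 there and 15844, 16988 and 16074 in male replicates 1, 3 and 4. The likeness did not extend to all hearts: female replicate 4 had the lowest female Kdr (13464), but not the lowest female Tek (4804). The ratio of Flt1 to Kdr counts was 0.820 in male replicate 5, 0.511 to 0.541 in the other males and 0.566 to 0.681 in females. The ratio of Tie1 to Tek counts was 2.12 in that heart, 1.76 to 1.84 in the other males and 1.68 to 1.74 in females. Male replicate 5 also had the highest summed level of platelet markers, 1545 against 984 to 1191 in the other males and 912 to 1166 in females (7 of 9 markers measured, none at 0 in any heart). Other lists stood apart there as well. That heart had the lowest sum of T and B cell markers of all hearts (241), and the lowest male sums of epicardial (2908) and macrophage markers (25876). Its library was the second smallest, and the part of library size or of any of these markers in the gene levels was not tested.

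**Figure D4:**
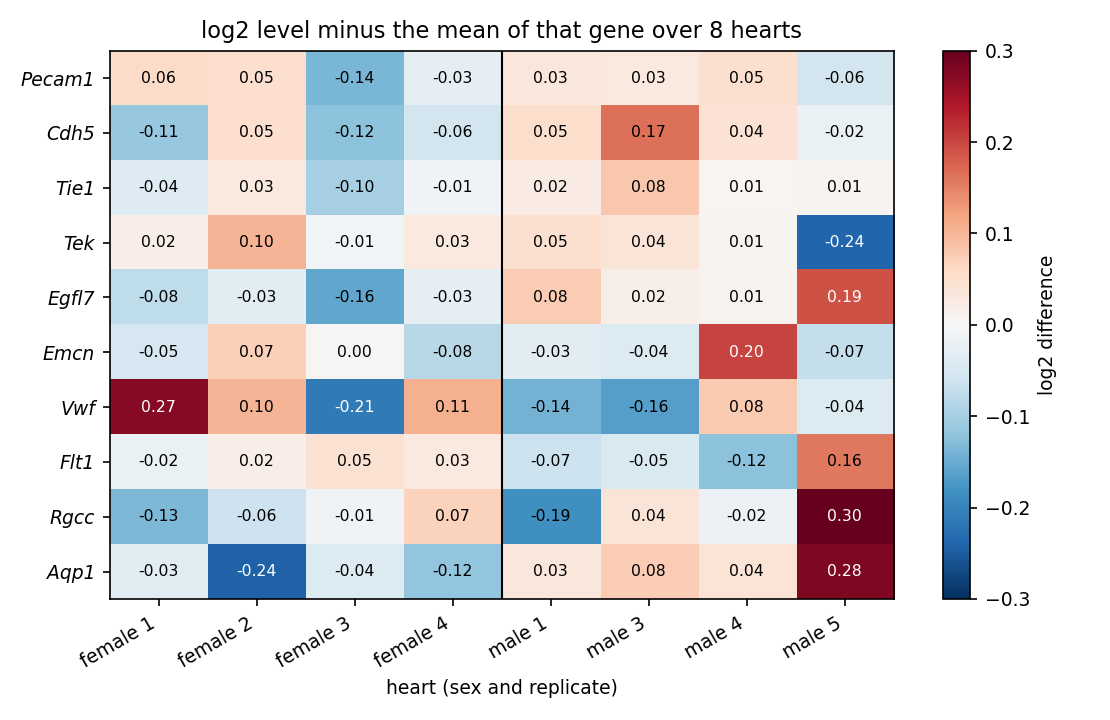
Log2 level of each gene in each heart minus that gene's mean over the 8 hearts (red higher, blue lower; females left of the line, males right). Male replicate 5 holds the lowest Tek value (-0.24) beside the highest Rgcc (0.30) and Aqp1 (0.28) values.

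Pairs of the 10 genes varied together in some cases and in opposite directions in others over the 8 hearts. Of the 45 pairs, 26 had a positive and 19 a negative Pearson r, with a median of 0.125. The closest pair was Tie1 and Cdh5 (r = 0.931, exact permutation adjusted p = 0.00558; Spearman rho = 0.952, exact permutation adjusted p = 0.0513; n = 8, adjusted over 45 pairs). It was 0.946 without the 2 most extreme hearts, female replicate 3 and male replicate 3. The most opposed pair, Aqp1 and Tek, had r = -0.831 (exact permutation p = 0.0151, adjusted p = 0.34) and rho = -0.452 (exact permutation p = 0.267, adjusted p = 0.708). It rested on the 2 extreme hearts, female replicate 2 and male replicate 5, with r = 0.269 without them. Against the mean of the other 9, none of the 10 genes passed; the highest were Egfl7 (r = 0.649, exact permutation adjusted p = 0.443; rho = 0.548, exact permutation adjusted p = 0.933) and Tie1 (r = 0.635 and rho = 0.452, with the same adjusted p values by exact permutation), and without the 2 most extreme hearts their r was -0.199 and 0.298.

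Relations with library size did not pass the adjusted test over the 8 hearts, and some were larger once the mean of each sex was taken out. Flt1 had the strongest, with r = -0.823 (exact permutation p = 0.01, adjusted p = 0.1 over 10 genes) and rho = -0.881 (exact permutation p = 0.00724, adjusted p = 0.0724, n = 8). Without the 2 hearts with the most extreme totals r was -0.891. The other 9 genes had exact permutation adjusted p of at least 0.292 for r. Male libraries were on the whole larger than female ones. With the mean of each sex taken from both measures, r over the 8 hearts was -0.828 for Flt1, 0.780 for Tek, -0.763 for Rgcc, -0.741 for Egfl7 (-0.0733 before) and -0.616 for Aqp1 (-0.00434 before). These within-sex values are descriptions with no test; male replicate 5 and female replicate 4 had the fewest reads of their sex, and the part of library size in the levels was not tested.

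The genes most alike in pattern to the mean of the 10 were picked as the 10 highest Pearson r over 8 hearts among genes outside the set, without predicted genes. They had r from 0.922 to 0.965, and the first 5 were Cyfip1 (0.965), Tmem214 (0.963), Slc52a2 (0.953), Parpbp (0.951) and Myh9 (0.946). Parpbp averaged only 15.3 normalized reads. Among so many genes and 8 hearts high values arise in any search, so these names describe the hearts and carry no test.

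Calls among related endothelial genes were few. Related genes in 12 lists, from TIE and VEGF signalling to aquaporins, comprised 119 measured genes outside the 10. Of these, 3 fell in females and 0 rose, which is 2.52% beside 1.16% of all genes (0.687% lower and 0.475% higher in females). Their median log2 fold change was 0.001, with 60 positive and 59 negative. Those that fell were the transcriptional repressor gene Bcl6b, the transcription cofactor gene Lmo2 and the Notch ligand gene Dll4. The count was 10 without male replicate 5, 1 without female replicate 2 and 1 without male replicate 3. Calls among all 17911 genes shifted too, from 77 to 516 over the fits without 1 heart. The share of all genes in each single fit is not given here, so no excess among the related genes is claimed from these counts.

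**Figure D5:**
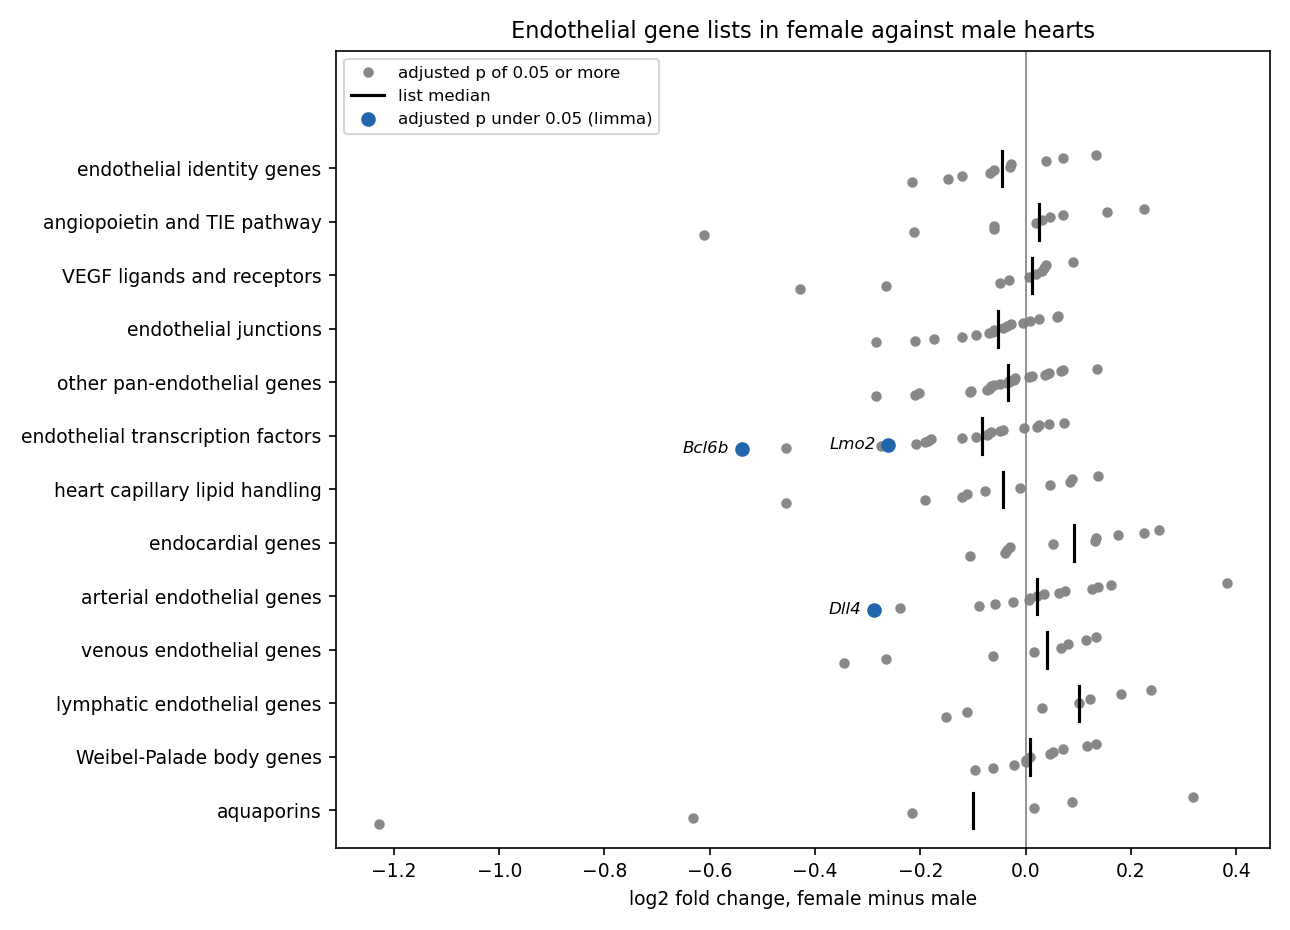
Log2 fold change, female minus male, of each gene in the endothelial identity set and in 12 related lists (points; blue marks a limma adjusted p under 0.05, black lines are list medians). Bcl6b, Lmo2 and Dll4 are the marked genes, and a gene on several lists is drawn in each.

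Bcl6b had 1433, 1213, 1148 and 1486 in female replicates 1 to 4 and 1823, 1866, 1853 and 2101 in male replicates 1, 3, 4 and 5. The sexes were well apart, at -0.54 on the log2 scale (SE 0.08, limma adjusted p = 0.02). Its call ended without female replicate 2 (limma adjusted p = 0.0703), male replicate 3 (0.0563) or male replicate 4 (0.0592). Lmo2 had 1272, 1369, 1325 and 1328 in females and 1585, 1604, 1642 and 1512 in males (log2 fold change -0.26, SE 0.04, limma adjusted p = 0.0106), and its call held whichever heart was left out. Dll4 had 1501, 1470, 1484 and 1337 in females and 1696, 1797, 1694 and 1889 in males (log2 fold change -0.29, SE 0.05, limma adjusted p = 0.0198). Its call ended without female replicate 2 (limma adjusted p = 0.0562) or male replicate 3 (0.0608), and in the 5 hearts with the most reads (0.0829).

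Around the TIE receptors, 0 of 10 pathway genes passed (median 0.03), Tie1 and Tek included. The agonist ligand gene Angpt1 had a female mean of 4713 ± 281 and a male mean of 4236 ± 251 (SD, n = 4 each), at 0.15 on the log2 scale with a limma adjusted p = 0.164. Among 10 VEGF ligand and receptor genes, Flt1 included, 0 passed (median 0.01). The ligand gene Vegfa averaged 21880 ± 304 (females) against 22723 ± 2356 (males; SD, n = 4 each), with a limma adjusted p = 0.772 for its log2 fold change of -0.05, and Nrp2, a coreceptor gene, had a log2 fold change of -0.26 (limma adjusted p = 0.116). Of 16 junction genes, Cdh5 and Pecam1 included, 0 passed and 12 were negative (median -0.05), and of 24 other pan-endothelial genes 0 passed and 16 were negative (median -0.03). Among 20 measured endothelial transcription factor genes 2 fell, 18 did not pass and 16 were negative (median -0.08). Meox2, a homeobox gene of heart capillary endothelium, averaged 802 ± 68.1 (females) against 1110 ± 195 (males; SD, n = 4 each) with no overlap, and did not pass (log2 fold change -0.46, limma adjusted p = 0.129). Of 10 genes of capillary lipid handling 0 passed (median -0.04); Gpihbp1, which holds lipoprotein lipase on the capillary wall, had a log2 fold change of -0.19 (limma adjusted p = 0.151).

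Among markers of other cell types, 3 of 10 macrophage genes fell in females (C1qa, Csf1r and C1qb, log2 fold changes -0.41, -0.36 and -0.39) and 10 of 10 were negative, with no marker at 0. Their calls ended in 7, 6 and 7 of the 8 fits without 1 heart, and held without male replicate 5. Their summed level was 21292 to 24889 in females and 25876 to 32362 in males. Like Aqp1 and Egfl7 it did not overlap between the sexes, a trait also of 9.35% of all genes. Among males the order of hearts differed: male replicate 5 had the lowest macrophage sum and the highest Aqp1 and Egfl7. The part of the macrophage markers in those differences was not tested. Fibroblast (1 of 10 rose, Lum), cardiomyocyte (2 of 12 rose, Ryr2 and Atp2a2, each call ending in 7 of 8 fits without 1 heart) and pericyte and smooth muscle lists (0 of 11 passed) had medians of 0.01, 0.01 and 0.04. Platelet markers, of which Pecam1 is not one although platelets carry it, had 0 of 7 passing, 7 of 7 negative and a median of -0.37. Over all genes 49.1% were negative. Platelet marker counts were low, with a lowest marker mean of 11.3, and male replicate 5 stood high in their sum (1545 against 984 to 1191 in the other males). The epicardial and mesothelial list had 0 of 8 passing and a median of -0.17, and the red cell list 0 of 7 and -0.03. The summed level of the 10 endothelial identity genes was 81908 to 86035 in females and 87221 to 92212 in males. Without Aqp1, which made up 23.4% to 31.0% of that sum, the ranges overlapped at 59048 to 64889 in females and 63134 to 64504 in males.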

How the data were processed

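Hearts of 4 female and 4 male mice were profiled by RNA sequencing; per the labels' protocols RNA came from a kit described there as isolating small RNA, and libraries followed a standard Illumina protocol. The deposited table gives, per its values, a signal for each gene and heart: reads scaled by the authors with a size factor for each heart. Beside these stand a deposited log2 fold change and deposited p-values, raw and adjusted. The genome build was mm10 per the submitters' processing notes; for aligner, counter, strand, filter and test, the step was not given in the sources used here. All values (100%, tolerance 0.001 reads) were whole multiples of 1 read, so read counts were recovered from the deposited signal.

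The test was limma 3.58.1 (R 4.3.3, trend and robust) on log2(value + 1) over all 17911 genes and 8 hearts, with no covariate; a value of at least 1 in 4 hearts was required, which removed 0 genes and 0 of the 10 members. Calls used a Benjamini-Hochberg adjusted p under 0.05. The fixed design named limma for normalized values and edgeR for raw counts. Correlations used all 40320 orderings of the hearts, two-sided. Alternatives on recovered reads were edgeR 4.0.16 and DESeq2 1.42.0; limma was tested on simulated data. Replicates of 1 sex differed by 8.21 to 18.4 times sampling noise (chi-square over its degrees of freedom), and each library counted as a sample of its own. Members and lists were chosen with earlier results of these data known. The naming rule took all members, and in each list the called genes plus, up to 4 in all, those with the smallest p, plus the 10 genes most alike in pattern and the most abundant cell type markers; the text gives values for part of these. Exon lengths came from GENCODE vM21 and start-site windows from RefSeq; motifs were chosen after the files were seen, from background knowledge.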

Additional observations from a re-analysis of the deposited data

Results flagged for a closer look

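Single hearts stood far from the other 3 of their sex in 3 of the 20 combinations of gene and sex examined. Chance gives about 1 in 20 for independent, normally distributed values. These combinations reuse the same 8 hearts, and the share over all genes is not given here, so no excess is claimed. In each, the gap to the nearest heart, as a share of the range of its sex, exceeded Dixon's 95% critical value for 4 samples. Tek was 3987 in male replicate 5, with 4733 as the nearest male value (share 0.851). Aqp1 was 28548 in the same heart, with 24799 as the nearest (share 0.840). Emcn was 2444 in male replicate 4, with 2075 as the nearest (share 0.871).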

How the results depend on the processing

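The 10 fold changes were recomputed under 20 alternatives each: of 200 values, 188 kept their direction and their side of the threshold, 2 came to pass it and 10 changed direction. Cdh5, Tie1, Egfl7, Vwf and Aqp1 kept their direction in all 20. DESeq2 called 1 of the 10 (Aqp1, -0.22), 690 of all genes (4.90% of those it tested) and 11 related genes. Total reads as a covariate called 1 (Egfl7, -0.20), 153 of all genes (0.854%) and 5 related genes. That covariate turned Pecam1 (0.0092), Emcn (0.025), Flt1 (-0.029) and Vegfa (0.026). The 5 hearts with the most reads turned Pecam1 (0.016). Leaving out 1 heart gave 0 of the 10 called, 77 to 516 of all genes, 1 to 10 related genes, and log2 fold changes of -0.052 to 0.012 for Pecam1, -0.059 to 0.033 for Emcn and -0.14 to 0.020 for Rgcc. The thresholds of the labels gave 0 of the 10. Co-variation with the other 9 genes changed sign without 1 heart for 8 genes: r ran from -0.56 to 0.773 for Pecam1, -0.0966 to 0.496 for Cdh5, -0.858 to 0.337 for Tek, -0.377 to 0.12 for Emcn, -0.685 to 0.143 for Vwf, -0.738 to 0.131 for Flt1, -0.156 to 0.231 for Rgcc and -0.212 to 0.467 for Aqp1. The causes were not tested.

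Titles share replicate numbers 1, 3 and 4 between the sexes and library codes share 1, 3 and 5. Same-numbered deviations correlated over genes at 0.166, -0.0463 and -0.108 by title and 0.166, -0.0463 and 0.124 by code. So few values cannot decide whether either number pairs the hearts, so fits with each as a block are given. In such a fit a heart whose number is absent in the other sex adds nothing to the sex difference. These hearts were female replicate 2 and male replicate 5 by title, and female replicate 2 and male replicate 4 by code. The block fits therefore differ from the main fit in the hearts used as well as in the blocking. The replicate block called 0 of the 10, 145 of all genes and 4 related genes, with Tek at -0.018 and Rgcc at 0.029 and Aqp1 at -0.11; under it limma's adjusted p was 0.0549 for Bcl6b and 0.0744 for Dll4, which ended both calls, and 0.0467 for Lmo2. The block by library code called 0 of the 10, 26 of all genes and 0 related genes, with Emcn at 0.0040, and ended the calls of Bcl6b (0.0618), Lmo2 (0.199) and Dll4 (0.211). Depth of 12356 reads or more per gene leaves the spread between hearts, not counting, as the main limit.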

Other observations

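Endothelial subtypes were measured as well. Of 10 endocardial genes, 2 of them in the identity set, 0 passed and 6 were positive (median 0.09); Cytl1 averaged 983 ± 52.1 (females) against 826 ± 70.1 (males; SD, n = 4 each) without overlap, at a limma adjusted p = 0.0864. Of 7 measured lymphatic genes 0 passed (median 0.10), and Prox1, which cardiomyocytes also express, had a log2 fold change of 0.24 (limma adjusted p = 0.212). Of 15 arterial genes Dll4 fell and 14 did not pass (median 0.02), and of 8 venous genes 0 passed (median 0.04), with Aplnr at -0.34 (limma adjusted p = 0.255). Of 11 genes of Weibel-Palade bodies, the stores of von Willebrand factor, 0 passed (median 0.01). Of 6 measured aquaporins 0 passed; Aqp8, a low-count channel gene, averaged 94.5 ± 17.2 (females) against 148 ± 29.96 (males; SD, n = 4 each) without overlap (limma adjusted p = 0.0935). Aqp4 had a log2 fold change of 0.32 (limma adjusted p = 0.219).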
